A study of Mus musculus with 6 samples.

Results

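Bone marrow-derived macrophages (BMDMs) were examined for 10 genes of the peroxisome proliferator-activated receptor (PPAR) pathway, lipid uptake and fatty acid oxidation. The genes were the receptors *Pparg* and *Ppard*, the uptake receptor *Cd36*, the fatty acid carriers *Fabp4* and *Fabp5*, the lipid droplet protein *Plin2*, the secreted lipase inhibitor *Angptl4*, and the oxidation enzymes *Cpt1a*, *Acadvl* and *Acadm*. They were found by their symbols among 55335 mouse Ensembl genes, and each matched exactly 1 row. BMDMs were grown from *Cd177* WT marrow with 25 ng/ml macrophage colony-stimulating factor for 7 days and then kept for 24 h in direct co-culture with neutrophils. The neutrophils came from the injured spinal cord of adult male mice at 3 days post-injury (dpi), either *Cd177* WT or *Cd177* KO (*Cd177*-/-, absent from the whole animal), and were isolated by magnetic sorting. BMDMs were recovered as Ly6G-negative cells by flow sorting, and 3 libraries were labelled WT and 3 labelled KO after the neutrophils they met. No label says whether the 3 libraries of a group came from separate animals or cultures, so p-values measure only the spread between these libraries. The comparison asks how macrophages differ with the *Cd177* genotype of the neutrophils.

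PPARs are nuclear receptors that bind fatty acids and their oxidised derivatives and sit on DNA together with a retinoid X receptor (RXR). PPARγ, the product of *Pparg*, drives lipid uptake and storage genes in macrophages and fat cells, and PPARδ, the product of *Ppard*, is found in most tissues and is linked to fatty acid oxidation. Macrophages that take up lipid can store it in droplets or pass it to mitochondria, where acyl chains enter through the carnitine shuttle and are shortened by β-oxidation.

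*Cd177* itself had 0.544, 0.309 and 0.521 FPKM (fragments per kilobase, relative to library size) in the WT-labelled libraries and 1.79, 1.84 and 2.28 FPKM in the KO-labelled ones, against the direction of the labels. Whether this *Cd177* RNA came from the macrophages, which were grown from WT marrow, or from neutrophils was not tested, and groups are named here as labelled. Macrophage markers summed to 7156 to 8625 FPKM over 10 genes in the WT-labelled libraries and 8079 to 8898 FPKM in the KO-labelled ones, and of the 10 *Adgre1*, *Mertk* and *C1qa* were called higher and *Cd14* (log2 fold change -3.33) and *Fcgr1* (-1.83) lower, all but *Adgre1* named after their values were seen. *Csf1r* was not called, with levels between 232 and 284 FPKM in the WT-labelled libraries and between 268 and 293 FPKM in the KO-labelled ones. *Adgre1*, between 218 and 256 FPKM and between 279 and 309 FPKM, was called higher (limma adjusted p = 0.0449). Markers of neutrophils were summed over a list of 12 genes, which held between 191.7 and 251.5 FPKM in the WT-labelled libraries and between 522.5 and 534.9 FPKM in the KO-labelled ones. Of its 9 tested genes 7 were higher and 1 was lower (limma, adjusted p-value under 0.05), and *Ly6g*, the gene of the sorting antigen, stood at 0 in the WT-labelled libraries and at 0.660, 0.547 and 0.403 FPKM in the KO-labelled ones. Fat cell markers summed to 3.05 to 3.26 FPKM over 8 genes in the WT-labelled libraries and 2.96 to 3.71 FPKM in the KO-labelled ones, with 1 gene tested and not called. Endothelial markers summed to 3.15 to 5.27 FPKM and 2.97 to 4.29 FPKM, with 3 genes tested and *Kdr*, also named after its values were seen, called lower. Of their defining genes *Lep* and *Cidec* were listed at 0 in all libraries, *Adipoq* reached 0.158 FPKM and *Cdh5* 0.711 FPKM. Replicate 3 of each group was lower in long transcripts. The median deviation of genes with a longest transcript of at least 5000 bases, minus that of genes under 2000 bases, was 0.12, 0.20 and -0.42 on the log2 scale in replicates 1, 2 and 3 labelled WT and 0.08, 0.11 and -0.12 in the KO-labelled ones. The column sums were 302532 to 340717 FPKM, and the depth of each library is unknown. In bulk RNA, fewer cells of a kind and less RNA per cell cannot be told apart.

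All 10 genes passed the filter of a mean of at least 0.5 FPKM. They were tested with limma on log2(FPKM + 0.5), on which changes of weakly expressed genes come out too small, and called at a Benjamini-Hochberg adjusted p-value under 0.05 over 13367 tested genes. In the KO-labelled libraries, *Pparg* and *Acadm* were higher, while *Cd36*, *Fabp4*, *Fabp5* and *Plin2* were lower. *Ppard*, *Angptl4*, *Cpt1a* and *Acadvl* were not called. Thus 2 of 10 were higher, where 27.1% of all tested genes were, and 4 of 10 were lower, where 10.5% of all tested genes were (37.6% in either direction). The libraries labelled WT and KO did not overlap in 7 of the 10 genes, 2 of them higher and 5 lower in the KO-labelled ones, and in 51.9% of all tested genes, 37.5% higher and 14.4% lower. At the threshold stated in the methods, a fold change above 2 with an unadjusted p-value under 0.05, *Pparg* alone passed, against 11.1% of all tested genes, 6.68% higher and 4.43% lower. The median log2 fold change of the 10 genes was -0.18 and that of all tested genes 0.19. With median-of-ratios scaling between libraries the latter was -0.01, called genes were higher in 47.5% of cases in place of 72.0%, and the 10 genes split into 2 higher and 5 lower.

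**Figure D1:**
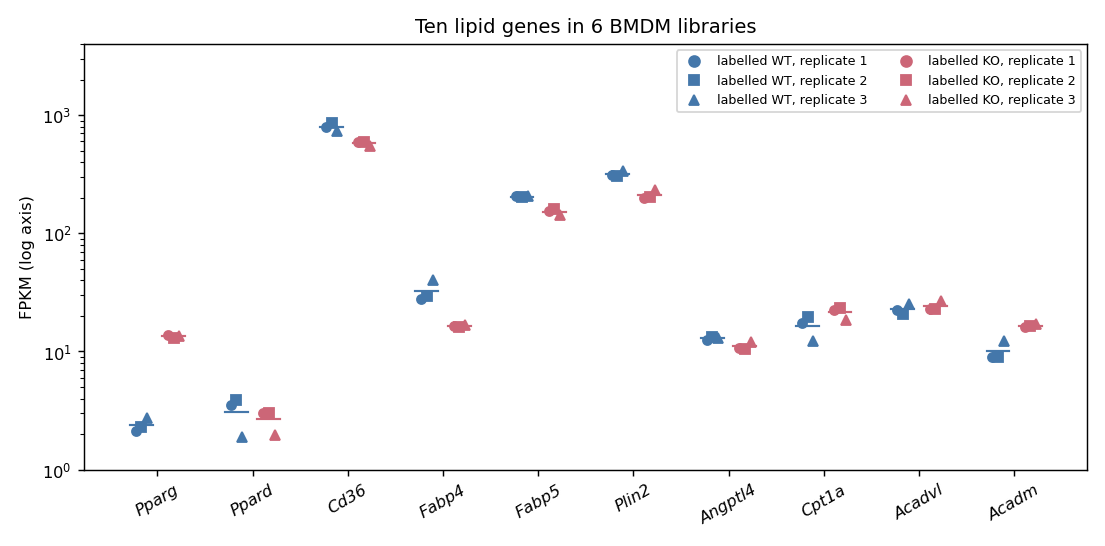
FPKM of the 10 genes in each of the 6 libraries on a log axis, with the libraries labelled WT in blue and those labelled KO in red, symbols for replicates and a line at each group mean. *Pparg* moves from the bottom of the range, near 2.40 FPKM, to 13.4 FPKM, while *Cd36*, *Plin2* and *Fabp5* stay the most abundant in both groups.

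*Pparg* (ENSMUSG00000000440, chromosome 6, positions 115360951 to 115490399 on the forward strand in GENCODE M21, GRCm38) had 2.14, 2.29 and 2.76 FPKM in the WT-labelled libraries. It had 13.8, 13.1 and 13.4 FPKM in the KO-labelled libraries. The 2 groups were far apart, and the KO mean was 5.61 times the WT mean. It rose by 2.27 on the log2 scale (standard error, SE, 0.11, limma adjusted p = 1.69e-05). *Pparg* has 7 annotated transcripts, from several start sites, and the values are per gene, so they do not show which of them rose.

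*Ppard* (ENSMUSG00000002250, chromosome 17, positions 28232700 to 28301474) had 3.51, 3.86 and 1.89 FPKM in the WT-labelled libraries and 3.03, 2.99 and 1.97 FPKM in the KO-labelled ones. The groups overlapped, with replicate 3 the lowest of each. The log2 fold change was -0.15, with a 95% confidence interval of -0.77 to 0.47 (limma adjusted p = 0.687). A change of either sign within these bounds remained possible. The ratio of *Pparg* to *Ppard* within a library does not depend on the scaling between libraries. A library's balance of long and short transcripts need not cancel in it, as their longest annotated transcripts have 2125 and 3726 bases. The ratio was 0.610, 0.594 and 1.46 in the WT-labelled libraries and 4.55, 4.38 and 6.80 in the KO-labelled ones. Replicate 3, lower in long transcripts, had the highest ratio of each group, and a link between these was not tested. On the log2(FPKM + 0.5) scale the ratio differed by 2.42 between the groups. The exact two-sided permutation p was 0.1, the smallest that 3 against 3 libraries allow. The third receptor, *Ppara*, was listed at 0 in 5 libraries and at 0.0283 FPKM in KO replicate 3.

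**Figure D2:**
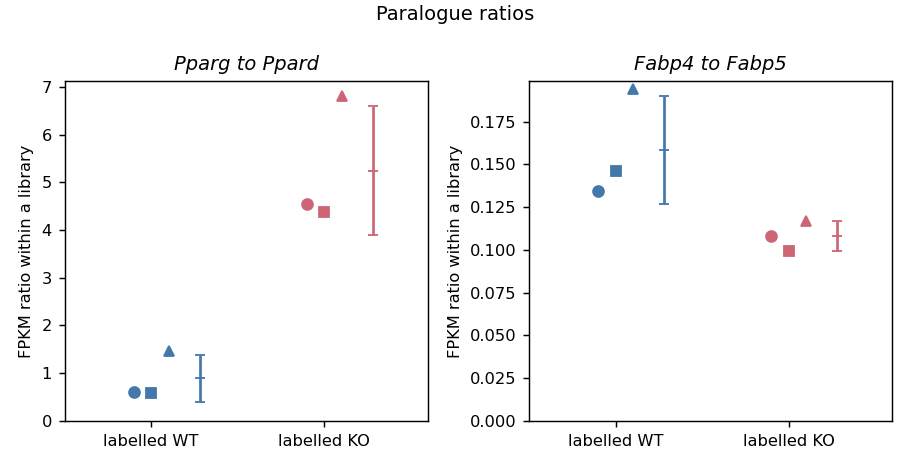
Ratio of the FPKM of *Pparg* to *Ppard* and of *Fabp4* to *Fabp5* within each library, with the group mean and SD (n = 3) at the right of each group. Every library labelled KO lies above the WT libraries for *Pparg* to *Ppard* (4.38 or more against 1.46 or less) and below them for *Fabp4* to *Fabp5* (0.117 or less against 0.135 or more).

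Promoter windows are shown for the genes that carry the contrast between the receptor and its neighbours: *Pparg* itself at its 3 listed start sites, *Cd36* and *Plin2*, which fell, and *Acadm*, which rose. They are RefSeq windows of 300 bases on GRCm38.p6, from 250 bases before a start site to 50 after it, written 5′ to 3′ on the strand of the gene. Capitals mark AGGTCA, the repeat that PPAR and RXR bind, or TGACCT, the same letters on the other strand.
*Pparg*, chr6:115360894-115361193, forward strand: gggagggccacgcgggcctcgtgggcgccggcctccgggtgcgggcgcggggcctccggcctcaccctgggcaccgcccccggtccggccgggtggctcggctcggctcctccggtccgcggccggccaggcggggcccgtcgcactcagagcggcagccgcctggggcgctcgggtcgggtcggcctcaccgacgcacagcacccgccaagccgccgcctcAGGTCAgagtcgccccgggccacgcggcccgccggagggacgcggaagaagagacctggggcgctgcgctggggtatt
*Pparg*, chr6:115362099-115362398, forward strand: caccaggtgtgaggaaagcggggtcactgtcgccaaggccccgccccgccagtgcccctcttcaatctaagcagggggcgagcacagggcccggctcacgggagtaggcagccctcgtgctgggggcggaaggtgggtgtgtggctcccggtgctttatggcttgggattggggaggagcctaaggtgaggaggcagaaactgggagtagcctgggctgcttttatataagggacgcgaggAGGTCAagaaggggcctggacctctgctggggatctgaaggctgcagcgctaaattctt
*Pparg*, chr6:115421816-115422115, forward strand: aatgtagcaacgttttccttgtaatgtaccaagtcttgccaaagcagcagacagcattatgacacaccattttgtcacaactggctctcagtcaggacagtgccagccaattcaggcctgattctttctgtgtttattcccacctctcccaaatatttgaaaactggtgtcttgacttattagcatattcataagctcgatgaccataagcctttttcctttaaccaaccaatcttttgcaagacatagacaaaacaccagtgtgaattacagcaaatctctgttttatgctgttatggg
*Cd36*, chr5:17835847-17836146, reverse strand: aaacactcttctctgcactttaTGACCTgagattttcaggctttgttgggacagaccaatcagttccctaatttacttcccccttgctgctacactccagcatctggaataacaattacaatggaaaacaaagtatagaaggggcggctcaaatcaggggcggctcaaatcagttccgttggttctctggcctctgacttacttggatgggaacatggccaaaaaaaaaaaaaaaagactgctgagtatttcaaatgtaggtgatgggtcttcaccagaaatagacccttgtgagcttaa
*Plin2*, chr4:86670010-86670309, reverse strand: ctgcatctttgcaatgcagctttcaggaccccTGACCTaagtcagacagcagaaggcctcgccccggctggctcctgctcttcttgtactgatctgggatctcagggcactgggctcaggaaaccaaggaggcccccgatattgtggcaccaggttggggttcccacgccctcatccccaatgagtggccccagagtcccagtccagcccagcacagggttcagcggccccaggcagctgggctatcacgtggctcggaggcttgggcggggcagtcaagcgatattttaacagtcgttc
*Acadm*, chr3:153944594-153944893, reverse strand: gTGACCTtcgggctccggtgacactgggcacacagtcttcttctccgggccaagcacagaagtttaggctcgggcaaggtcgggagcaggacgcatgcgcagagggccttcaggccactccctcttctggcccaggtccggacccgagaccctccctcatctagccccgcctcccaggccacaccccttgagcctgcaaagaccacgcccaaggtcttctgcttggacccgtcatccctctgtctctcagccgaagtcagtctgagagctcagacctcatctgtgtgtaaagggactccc
Windows were listed for 7 of the 10 genes, 9 windows in all. *Cd36* has 6 annotated transcripts, and its only window lies inside the gene, whose 5′ end on the reverse strand is at 17888801. The sequence at that end was not searched. AGGTCA on either strand was in 7 of the 9 windows and in 6 of the 7 genes, *Pparg*, *Cd36*, *Plin2*, *Cpt1a*, *Acadvl* and *Acadm*, whether they rose, fell or were not called. It was in 16.3% of the 32851 promoter windows of all genes. Paired repeats of this kind spaced by 1 base (DR1, AGGTCANAGGTCA on either strand), the arrangement described for PPAR and RXR, contain the single repeat and were in none of the 9 windows and in 0.0396% of all windows. ACGTG, the core letters of hypoxia response elements, was searched on both strands and was in the windows of *Plin2*, *Acadvl* and *Ppard*, and in 19.6% of all windows. The *Pparg* window from 115421816 to 115422115 held no match to either AGGTCA or ACGTG. These are matches of letters in a short window, not measured binding.

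*Cd36*, a scavenger receptor that imports oxidised lipoprotein and long-chain fatty acids, was the most abundant of the 10 genes (ENSMUSG00000002944, chromosome 5, positions 17781690 to 17888801). It had 792, 854 and 734 FPKM in the WT-labelled libraries and 587, 588 and 552 FPKM in the KO-labelled ones. All KO-labelled libraries were below all labelled WT, and the WT mean was 1.38 times the KO mean (log2 fold change -0.46, SE 0.09, limma adjusted p = 0.00785). Without the filter on low values its adjusted p was 0.0548. *Cd36* thus fell by a modest factor from a very high level.

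*Fabp4*, the carrier named for fat cells and also made by macrophages (ENSMUSG00000062515, chromosome 3, positions 10204088 to 10208576), had 27.7, 29.4 and 40.2 FPKM in the WT-labelled libraries. It had 16.5, 16.1 and 16.6 FPKM in the KO-labelled libraries. This was the largest fall among the 10 genes, to a ratio of 0.506 (log2 fold change -0.94, SE 0.14, limma adjusted p = 0.0028), and WT replicate 3 stood above the others. Without that library the log2 fold change was -0.78. *Fabp5*, its paralogue on the same chromosome (ENSMUSG00000027533, positions 10012548 to 10016607), had 206, 201 and 207 FPKM in the WT-labelled libraries and 153, 162 and 143 FPKM in the KO-labelled ones. Its groups did not overlap, and it fell by 0.43 on the log2 scale (SE 0.08, limma adjusted p = 0.00635).

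*Fabp5* has 5 annotated processed pseudogenes that are at least 90% identical to it over 50% or more of its coding sequence, so reads can be split between them. Of these *Gm6166*, named after its values were seen, is 98.3% identical and had 27.9, 23.7 and 27.0 FPKM in the WT-labelled libraries and 27.5, 32.0 and 20.5 FPKM in the KO-labelled ones. Its groups overlapped. Added to *Fabp5* it gave 231 ± 5.30 FPKM (SD, n = 3) in the WT-labelled libraries and 179 ± 15.3 FPKM (SD, n = 3) in the KO-labelled ones, so *Fabp5* with its copy was lower too, by a factor of 1.29. The ratio of *Fabp4* to *Fabp5* was 0.135, 0.146 and 0.194 in the WT-labelled libraries and 0.108, 0.0994 and 0.117 in the KO-labelled ones. It was lower in all 3 KO-labelled libraries, by 0.52 on the log2(FPKM + 0.5) scale, with an exact two-sided permutation p of 0.1, again the smallest possible.

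*Plin2*, which coats lipid droplets and follows the lipid load of a cell (ENSMUSG00000028494, chromosome 4, positions 86648386 to 86670060), had 310, 308 and 340 FPKM in the WT-labelled libraries. It had 200.5, 204.0 and 232 FPKM in the KO-labelled libraries. The groups did not overlap, and *Plin2* fell by 0.59 on the log2 scale (SE 0.09, limma adjusted p = 0.00319), the WT mean being 1.504 times the KO mean. *Angptl4*, a secreted inhibitor of lipoprotein lipase that both PPARs and hypoxia induce (ENSMUSG00000002289, chromosome 17, positions 33773750 to 33781830), had 12.4, 13.3 and 13.0 FPKM in the WT-labelled libraries and 10.7, 10.5 and 12.0 FPKM in the KO-labelled ones. Its groups did not overlap either, but its log2 fold change of -0.21 (95% confidence interval -0.42 to -0.003) was not called (limma adjusted p = 0.101). With median-of-ratios scaling *Angptl4* was called lower, at -0.43 (limma adjusted p = 0.014), and upper-quartile scaling and quantile normalization called it lower too.

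*Cpt1a*, which makes acylcarnitine at the outer mitochondrial membrane and sets the rate of entry (ENSMUSG00000024900, chromosome 19, positions 3322334 to 3385733), had 17.4, 19.5 and 12.2 FPKM in the WT-labelled libraries. It had 22.6, 23.1 and 18.5 FPKM in the KO-labelled libraries. Replicate 3 was the lowest of each group and the groups overlapped, and the log2 fold change of 0.40 (95% confidence interval -0.04 to 0.83) was not called (limma adjusted p = 0.136). Without replicate 3 of both groups, a setting chosen after seeing the data, it was 0.30 with an adjusted p of 0.0276 from limma. The mean of *Cpt1a* was thus higher by an amount close to the spread between its libraries.

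*Acadvl*, the dehydrogenase that opens the oxidation of very long chains (ENSMUSG00000018574, chromosome 11, positions 70010183 to 70015411), had 22.5, 20.6 and 25.4 FPKM in the WT-labelled libraries and 23.0, 22.8 and 26.6 FPKM in the KO-labelled ones. The groups lay on top of each other, with a log2 fold change of 0.08 (95% confidence interval -0.18 to 0.34, limma adjusted p = 0.613), which turned to -0.15 with median-of-ratios scaling and to -0.01 with upper-quartile scaling. *Acadvl* shares 1151 exonic bases with *Dvl2* on the opposite strand, which had between 3.21 and 4.85 FPKM, and strand was not stated for the counting. *Acadm*, the enzyme of the same step for medium chains (ENSMUSG00000062908, chromosome 3, positions 153922357 to 153944632), had 9.04, 8.92 and 12.2 FPKM in the WT-labelled libraries and 16.2, 16.3 and 17.2 FPKM in the KO-labelled ones. It rose in all 3 KO-labelled libraries, with a KO mean 1.65 times the WT mean (log2 fold change 0.71, SE 0.13, limma adjusted p = 0.00598).

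**Figure D3:**
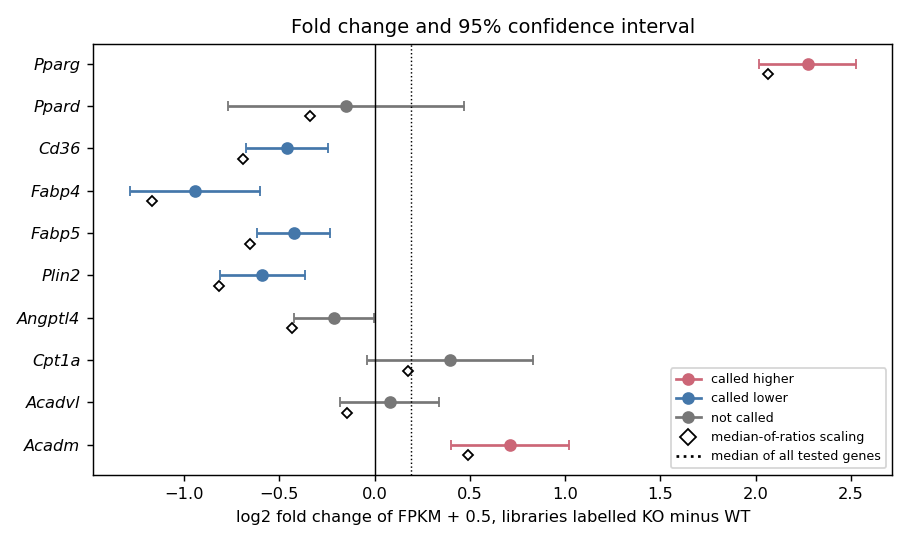
Log2 fold change of each of the 10 genes (circle) with its 95% confidence interval from limma, coloured by the call, and the value with median-of-ratios scaling (open diamond). *Pparg* (2.27) and *Acadm* (0.71) lie to the right, the lipid uptake and storage genes lie to the left, and the other scaling moves all 10 to the left by about the same amount.

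FPKM is per length, so levels can be set side by side. In the WT-labelled libraries the order of the group means was *Cd36*, *Plin2*, *Fabp5*, *Fabp4*, *Acadvl*, *Cpt1a*, *Angptl4*, *Acadm*, *Ppard* and *Pparg*. Ranges of neighbours overlapped for *Cpt1a* and *Angptl4*, and for *Ppard* and *Pparg*. In the KO-labelled libraries *Fabp4* moved from the fourth to the seventh place and *Pparg* from the last to the eighth, above *Angptl4* and *Ppard*. There the ranges overlapped for *Acadvl* and *Cpt1a*, and for *Acadm* and *Fabp4*. The 3 leading genes kept their order, with 793, 319 and 205 FPKM on average in the WT-labelled libraries and 576, 212 and 152 FPKM in the KO-labelled ones.

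The genes whose levels ran most like *Pparg* over the 6 libraries, by Pearson correlation of log2(FPKM + 0.5), were *Cd83*, *Ngp* and *Rnd3*, each with r of 0.999. *Ngp*, a neutrophil granule gene of the marker list, had 10.7, 12.6 and 15.3 FPKM in the WT-labelled libraries and between 105 and 110 FPKM in the KO-labelled ones. Any gene that separates the groups scores high here, and 1470 genes had r above 0.95. The part of neutrophil RNA in the levels of *Pparg* and the other 9 genes was not tested. For *Fabp4* the closest were *Golt1b*, *Kdelr3* and *Gm6532*, with r of 0.997, 0.997 and 0.996. *Golt1b* had 26.4, 27.8 and 32.3 FPKM in the WT-labelled libraries and between 18.8 and 19.7 FPKM in the KO-labelled ones, and 427 genes had r above 0.95.

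Around the 10 genes, 136 other genes were listed by step of the pathway, as PPAR targets or as hypoxia-inducible, and 114 were tested. The 114 include the hypoxia-inducible list, in which 8 of 12 genes were lower and 4 were higher. In the KO-labelled libraries 50 of the 114 were higher and 23 were lower (limma, adjusted p-value under 0.05). Of all 13367 tested genes 3619 were higher and 1408 lower (27.1% and 10.5%). The median log2 fold change of the 114 was 0.36, beside 0.19 for all tested genes. With median-of-ratios scaling 34 were higher and 27 were lower, beside 2044 and 2263 of 13329 tested genes. With that scaling the medians of the receptor, uptake, activation and droplet lists turned to -0.01, -0.003, -0.18 and -0.09, so their signs depend on the scaling.

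Of the receptors and coregulators other than those 10, 13 of 16 were tested, 3 were higher and 1 was lower, with a median log2 fold change of 0.22. *Rxra*, the main partner of PPARs in macrophages, had 25.3, 26.3 and 17.2 FPKM in the WT-labelled libraries and 26.4, 20.3 and 22.0 FPKM in the KO-labelled ones. Its groups overlapped, with a log2 fold change of 0.01 (95% confidence interval -0.42 to 0.45) that was -0.21 with median-of-ratios scaling. *Rxrb*, another partner, rose from 4.85 ± 0.619 to 9.65 ± 2.01 FPKM (SD, n = 3 each, limma adjusted p = 0.00648). *Pprc1*, a coactivator linked to mitochondrial growth, fell from 7.72 ± 2.73 to 3.91 ± 0.381 FPKM (SD, n = 3 each, limma adjusted p = 0.0233), and without any one of the KO libraries its adjusted p was between 0.0514 and 0.0704. *Ncoa2*, a coactivator, was called higher (log2 fold change 1.28, limma adjusted p = 0.0455), with 0.432 FPKM in WT replicate 3 and 2.07 and 2.18 FPKM in the other WT libraries. Without WT replicate 3 its log2 fold change was 0.78 (limma adjusted p = 0.0077). With median-of-ratios, upper-quartile, TPM or quantile scaling *Ncoa2* was not called, nor without WT replicate 1 or any one of the KO libraries (adjusted p between 0.0506 and 0.124 from limma).

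Lipid uptake and binding genes other than those 10 went both ways, 5 higher and 6 lower of 16 tested, with a median of 0.19. *Lpl*, the lipase that frees fatty acids from lipoproteins and that the *Angptl4* product inhibits, had 68.3, 68.1 and 77.9 FPKM in the WT-labelled libraries and 234, 248 and 284 FPKM in the KO-labelled ones. It rose by 1.83 on the log2 scale (SE 0.11, limma adjusted p = 3.95e-05). *Olr1*, a receptor for oxidised lipoprotein, had 16.0, 17.5 and 14.6 FPKM in the WT-labelled libraries and 0.261, 0.217 and 0.167 FPKM in the KO-labelled ones. Its log2 fold change of -4.53 (limma adjusted p = 1.86e-06) was the largest fall in these lists. *Fabp7*, a carrier best known from brain, fell from 14.7 ± 3.83 to 3.95 ± 0.529 FPKM (SD, n = 3 each, limma adjusted p = 0.000772), the same direction as *Fabp4* and *Fabp5*.

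Of the genes that attach fatty acids to coenzyme A, 8 were tested, 3 were higher and 4 were lower, with a median of 0.03. *Acsl3*, a long-chain acyl-CoA synthetase, rose from 2.13 ± 0.292 to 5.66 ± 0.486 FPKM, and *Acsf2*, another acyl-CoA synthetase, from 1.95 ± 0.316 to 5.43 ± 0.122 FPKM (SD, n = 3 each). *Acss2*, which activates acetate, fell from 1.89 ± 0.158 to 0.389 ± 0.0557 FPKM (SD, n = 3 each). Each of the 3 was called, with adjusted p-values of 0.00041, 0.000348 and 0.000283 from limma. The other tested long-chain synthetases, named after their values were seen, were more abundant than *Acsl3* in the WT-labelled libraries and were called lower. Mean levels went from 36.1 to 15.4 FPKM for *Acsl4*, 27.3 to 22.2 FPKM for *Acsl5* and 7.16 to 3.75 FPKM for *Acsl1*. Their adjusted p-values from limma were 8.59e-05, 0.028 and 0.0086.

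Of the lipid droplet genes other than *Plin2*, 17 were tested, 5 were higher and 3 were lower, with a median of 0.10. *Hilpda*, a small droplet protein that holds back lipolysis, had 87.4, 89.4 and 116 FPKM in the WT-labelled libraries and 13.9, 12.8 and 16.1 FPKM in the KO-labelled ones. It fell by 2.73 on the log2 scale (SE 0.14, limma adjusted p = 2.42e-05), in the direction of *Plin2* and much further. *Pnpla2*, the main triglyceride lipase, had 30.65, 30.02 and 30.40 FPKM in the WT-labelled libraries and 36.4, 31.3 and 33.7 FPKM in the KO-labelled ones, and was not called (log2 fold change 0.15, -0.08 with median-of-ratios scaling). *Lpin1*, a phosphatidate phosphatase, rose from 1.04 ± 0.0832 to 3.76 ± 0.447 FPKM (SD, n = 3 each, limma adjusted p = 0.000211). *Mgll*, the monoglyceride lipase, rose from 1.56 ± 0.349 to 6.63 ± 4.03 FPKM (SD, n = 3 each, limma adjusted p = 0.0118), with 11.3 FPKM in KO replicate 3 and 3.997 and 4.62 FPKM in the other KO libraries. Without KO replicate 3 its log2 fold change was 1.23 in place of 1.66.

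Oxidation genes other than those 10 were higher or not called. Of 8 tested genes of the carnitine shuttle and its control 5 were higher, and of 17 of mitochondrial β-oxidation 12 were higher. Of 16 tested genes of a peroxisomal list 10 were higher. That list also held genes outside β-oxidation itself, among them *Pecr*, *Phyh* and *Hacl1*, which were all called higher, the last named after its values were seen. Together 27 of 41 were higher, beside 27.1% of all tested genes. Over these 41 genes the median log2 fold change was 0.55, and 40 had a positive value. With median-of-ratios scaling 16 of the 41 were higher, beside 2044 of 13329 tested genes, and none was lower by limma at an adjusted p-value under 0.05, 34 had a positive value, and the median was 0.34 beside -0.01 for all tested genes. The summed level of the mitochondrial β-oxidation list, *Acadvl* and *Acadm* included, was 179, 165 and 213 FPKM in the WT-labelled libraries and 271, 269 and 297 FPKM in the KO-labelled ones.

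*Cpt2*, which releases the acyl chain inside the mitochondrion, had 5.83, 5.23 and 5.68 FPKM in the WT-labelled libraries and 8.95, 8.96 and 8.44 FPKM in the KO-labelled ones. It rose by 0.61 on the log2 scale (SE 0.09, limma adjusted p = 0.00199), with a narrower spread than *Cpt1a*. *Mlycd*, which breaks down malonyl-CoA, the inhibitor of the enzyme encoded by *Cpt1a*, rose from 3.41 ± 0.553 to 7.83 ± 0.472 FPKM, and *Crot*, the peroxisomal carnitine transferase, from 3.48 ± 0.0394 to 7.57 ± 0.316 FPKM (SD, n = 3 each, adjusted p = 0.000839 and 0.000205 from limma). *Etfb*, a subunit of the flavoprotein that takes electrons from the acyl-CoA dehydrogenases, had 14.7, 11.1 and 18.5 FPKM in the WT-labelled libraries and 41.2, 40.0 and 46.7 FPKM in the KO-labelled ones. This was the largest rise in the mitochondrial β-oxidation list (log2 fold change 1.52, limma adjusted p = 0.000903). *Decr1*, which handles double bonds in the chain, and *Acad12*, a further acyl-CoA dehydrogenase, rose by 1.15 and 0.97 on the log2 scale, and the peroxisomal *Pecr*, *Decr2* and *Phyh* by 1.09, 0.89 and 0.83.

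A list of 23 further genes known as PPAR targets in some tissue was not uniform. Of 15 tested, 7 were higher and 3 were lower, beside 27.1% and 10.5% of all tested genes. The median of the 15 was 0.34. *Pdk4* encodes a kinase that holds back the oxidation of pyruvate in mitochondria in favour of fatty acids. Its levels were 2.53, 2.29 and 2.02 FPKM in the WT-labelled libraries and 19.2, 19.4 and 18.9 FPKM in the KO-labelled ones. It rose by 2.83 on the log2 scale (SE 0.10, limma adjusted p = 4.445e-06), more than *Pparg*. *Tgm2*, transglutaminase, went the other way, from 301 ± 52.6 to 31.1 ± 3.55 FPKM (SD, n = 3 each, limma adjusted p = 1.77e-05), and *Olr1* and *Abcg1*, the latter named after its values were seen, were the other targets called lower. Among the members that are such targets, *Cd36*, *Fabp4* and *Plin2* were lower, *Acadm* was higher, and *Angptl4*, *Cpt1a* and *Acadvl* were not called.

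*Plin2* and *Angptl4* are also induced by hypoxia, and 12 other hypoxia-inducible genes, *Hilpda* among them, were set beside them. Of these 8 were lower and 4 were higher, beside 10.5% and 27.1% of all tested genes. Their median log2 fold change was -0.90. *Vegfa*, the vascular growth factor, fell from 118 ± 7.53 to 20.5 ± 0.153 FPKM (SD, n = 3 each, limma adjusted p = 3.55e-06). *Adm*, adrenomedullin, had 2.24, 1.89 and 2.74 FPKM in the WT-labelled libraries and 14.6, 13.5 and 16.4 FPKM in the KO-labelled ones, against the direction of most of the list. With median-of-ratios scaling 8 of the list were lower and 3 were higher, beside 2263 and 2044 of 13329 tested genes.

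**Figure D4:**
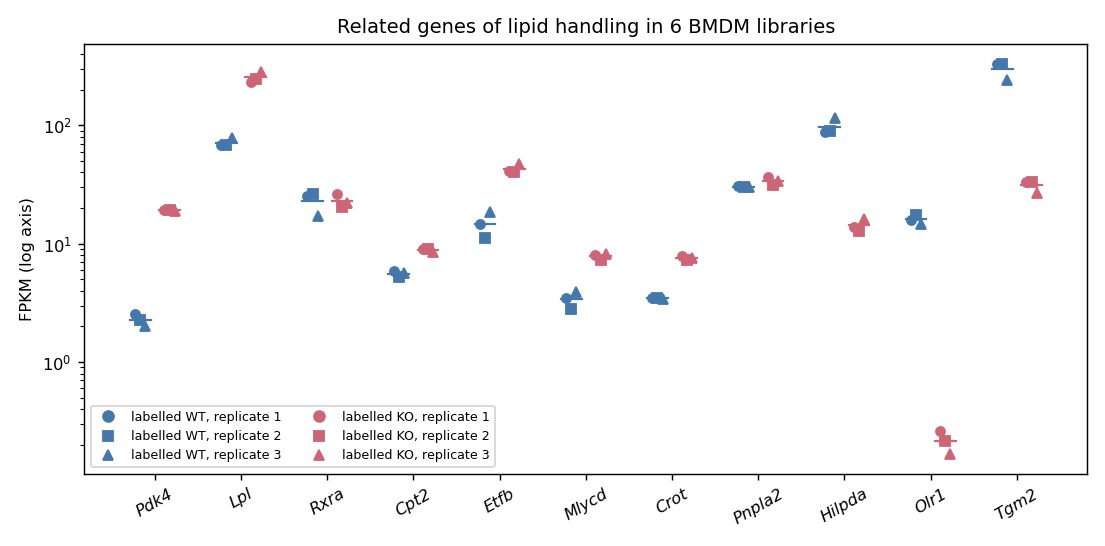
FPKM of 11 related genes in each of the 6 libraries on a log axis, with a line at each group mean. *Pdk4*, *Lpl*, *Cpt2*, *Etfb*, *Mlycd* and *Crot* are higher in the KO-labelled libraries, *Hilpda*, *Olr1* and *Tgm2* are lower, and *Rxra* and *Pnpla2* were not called.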

How the data were processed

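RNA was sequenced from BMDMs after co-culture, in 3 libraries labelled WT and 3 labelled KO. The deposited table holds FPKM for 55335 genes, 1 column a library, made by the authors. Per the submitters' processing notes, fastp 0.17.1, HISAT2 2.1.0, DESeq2 1.18.1 and R 3.4.3 were used, and the genome build, annotation, strand setting and FPKM tool are not given in the sources used here. The labels and the methods name different extraction reagents, library kits and sequencers. FPKM keeps no counts: only 30.0% to 32.6% of low values lay within 0.1 of a whole number of reads, where 20% would by chance, so no count model was run.

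The 13367 genes averaging 0.5 FPKM or more were fitted with limma 3.58.1 in R 4.3.3 on log2(FPKM + 0.5), two-sided, with a trended variance, no covariate and Benjamini-Hochberg adjustment over all of them. Ratios within a library were compared by exact permutation. Coding sequences were compared with blastn 2.17.0, and gene positions are those of GENCODE M21. On simulated data for this comparison with 13367 genes, 66 of 100 genes changed by 1 on the log2 scale and 95 of 100 changed by 2 were recovered, with 2 false calls. Only 200 genes were changed there, with independent noise and no change under 1, where 5027 genes were called in the data. These rates therefore need not hold for the data. Alternatives covered pseudocount, filter, scaling, variance, a replicate block and each library left out, and length correction and leaving out replicate 3 of both groups were added after seeing the data. The members and lists were chosen with earlier results of these data known. Ppara, Rxra, Cpt2, Pdk4, Lpl, Hilpda and Pnpla2 were always named, and from each list up to 3 called genes averaging 1 FPKM or more, by size of change, with the 3 genes correlating best with the member of largest rise and that of largest fall. B cell markers summed to 1.35 to 1.99 FPKM in the libraries labelled WT and 5.28 to 6.37 in those labelled KO, neural markers to 4.66 to 5.94 and 5.81 to 7.08, and dendritic cell markers to 0.554 to 1.15 and 0.314 to 0.664. BMDMs without neutrophils and protein sequences were not analysed here.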

Additional observations from a re-analysis of the deposited data

How the results depend on the processing

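*Pparg*, *Acadm*, *Fabp4*, *Fabp5* and *Plin2* kept their direction and call under all 20 alternatives, and *Cd36* under 19. The exception was the table without a filter on low values (adjusted p = 0.0548 from limma). *Angptl4* was called lower under 6 of the 20 and *Cpt1a* higher under 3. *Acadvl*, not called under any alternative, turned to -0.147 under median-of-ratios scaling, to -0.008 under that by the upper quartile and to -0.063 with length correction, with or without the replicate block. *Ppard*, not called under any of the 19 that kept it, turned to 0.015 without WT replicate 2 and 0.019 without KO replicate 3, within a range of -0.419 to 0.019 over the libraries left out. With single libraries, or replicate 3 of both groups, left out, 2 to 3 members were higher and 4 to 5 lower. Of all other listed genes 39 to 58 were then higher and 19 to 25 lower. Of all tested genes 2420 to 4515 were higher and 1059 to 1954 lower. The ratio of *Pparg* to *Ppard* then differed by 2.234 to 2.780 and that of *Fabp4* to *Fabp5* by -0.623 to -0.364 on the log2 scale.

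A filter at a mean of 5 FPKM left fewer genes to test. Of the other listed genes 28 of 71 were higher in place of 50 of 114. In all, 1756 of 6835 genes were higher in place of 3619 of 13367. With median-of-ratios scaling 2044 of all tested genes were higher and 2263 lower, in place of 3619 and 1408. Length correction gave 2337 lower, and with the replicate block 2617. Called genes were higher in 72.0% of cases, in 63.5% with upper-quartile scaling, 55.7% with quantile normalization and 54.3% with length correction. The cause of the shifts with scaling and length correction was not tested.

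Deviations from the group mean correlated between same-numbered WT and KO libraries by 0.116, 0.036 and 0.264 for replicates 1, 2 and 3. WT replicate 1 correlated best with KO replicate 2 (0.160), and WT replicate 2 with KO replicate 1 (0.121). The value for replicate 3 was the highest of any pair across the groups, and both of its libraries were lower in long transcripts. Whether libraries with the same number were handled together was not tested. With the replicate block 3 members were higher and 4 lower, *Cpt1a* being added (adjusted p = 0.023 from limma). Of the other listed genes 59 were higher and 23 lower, and 4253 of all tested genes were higher and 1681 lower.

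Depth is unknown, and 3 libraries a group limit an exact test of a single value to p of 0.1.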
